A study of Mus musculus with 4 samples.

Results

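The genes of cytochrome P450 families 1 to 4 were examined in mouse embryonic stem (ES) cells. Members were protein-coding genes on chromosomes 1 to 19 in GENCODE version M1 (genome build mm9) whose symbol starts with Cyp1, Cyp2, Cyp3 or Cyp4, a subfamily letter and a number. The rule took 78 of the 21418 protein-coding genes of these chromosomes, without using any measured value. All 78 were kept whatever their tag counts. Cyp2j7-ps and Cyp2d37-ps carry pseudogene-like symbols but are annotated as protein-coding. Among the members 3 belong to family 1, 49 to family 2, 9 to family 3 and 17 to family 4.

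The study mapped acetylation of histone H3 at lysine 9 (H3K9ac) and at lysine 14 (H3K14ac) by chromatin immunoprecipitation and sequencing (ChIP-seq), in which DNA bound to acetylated histones is pulled down with an antibody and sequenced as short tags. H3K9ac was precipitated with the polyclonal antibody ab4441, H3K14ac with 13HH3 (13HH3-1A5) and, in a separate library, with 7G8, and the fourth library held input DNA with no antibody. All 4 are labelled as untreated cells of the E14 line, strain 129P2/OlaHsd, at passages 25 to 30, whereas the study's methods speak of wild type ES cells from blastocysts, taken through feeder-free passages before use. There was 1 library per antibody, so that no test between samples was possible. Intervals of tag ratios are exact 95% intervals that cover counting error only. Those of shares of members are exact 95% binomial intervals. They treat the members as independent, although many are neighbouring copies, and are a description.

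P450 enzymes are haem proteins of the endoplasmic reticulum that insert oxygen into lipophilic substrates with electrons supplied by NADPH cytochrome P450 reductase. Families 1 to 3 are best known for the oxidation of drugs and other foreign compounds, and family 4 for the hydroxylation of fatty acids and eicosanoids. Most members are expressed in hepatocytes, others in the lung, gut, kidney or skin, and many lie in tandem arrays of closely related copies. Acetylation of H3K9 and H3K14 is a mark of active and poised promoters.

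The libraries held 23181544 tags for H3K9ac, 21626227 for 13HH3, 23837354 for 7G8 and 19313142 for input on chromosomes 1 to 19, X and Y. The input library stood apart from the other 3 in ways its label does not describe. Relative to input, the antibody libraries held 0.627 to 0.743 times the share of tags on chromosome X and 3.03 to 4.54 times the share on chromosome Y. Of 234310 autosomal bins of 10 kb with at least 10 input tags, 258 (0.110%) held antibody tags at 10% or less of the level in input. Values over input are therefore given together with values of H3K14ac over H3K9ac, which do not use the input library. Of 7 ES cell marker genes, 6 reached 2-fold over input for H3K9ac, with a median log2 of 2.56, and Esrrb alone did not (0.01). None of 6 fibroblast markers and none of 8 hepatocyte markers reached 2-fold. Their H3K9ac medians were 0.82 and 0.21, and H3K9ac peaks were found at 3 of 6 and at 1 of 8. For 13HH3 a peak was found at 1 of 6 and at 2 of 8. A 13HH3 peak without an H3K9ac peak stood at Esrrb and at the hepatocyte markers Apoa2 and Ttr.

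Promoter sequences show how unlike the members are at their start sites, and 7 of them are printed. The first 3 are among the members highest in H3K9ac over input. The other 4 are well-known inducible or liver genes: Cyp1a1, the aryl hydrocarbon receptor target that oxidises polycyclic aromatic hydrocarbons, Cyp2e1, the ethanol-oxidising enzyme, Cyp3a11, the main drug-oxidising P450 of mouse liver, and Cyp4a14, a fatty acid hydroxylase induced by PPARα. Each runs from 250 bases before the transcription start site (TSS) to base 50 of the transcript, 5′ to 3′ on the strand of the gene, from mm9. Capitals mark the letters TATAAA (the TATA box), the letters GCGTG (the core of the aryl hydrocarbon receptor element), those of the CCAAT box and the letters GGGCGG (the GC box), on either strand, so that a match on the other strand appears as its reverse complement.

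Cyp4f13 (chr17:33084298-33084597, minus strand): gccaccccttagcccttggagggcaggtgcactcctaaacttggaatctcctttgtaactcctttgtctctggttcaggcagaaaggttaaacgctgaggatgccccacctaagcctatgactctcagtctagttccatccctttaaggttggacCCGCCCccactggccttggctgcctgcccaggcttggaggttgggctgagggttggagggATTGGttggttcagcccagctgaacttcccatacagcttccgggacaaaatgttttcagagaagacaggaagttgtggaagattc
Cyp4v3 (chr8:46418521-46418820, minus strand): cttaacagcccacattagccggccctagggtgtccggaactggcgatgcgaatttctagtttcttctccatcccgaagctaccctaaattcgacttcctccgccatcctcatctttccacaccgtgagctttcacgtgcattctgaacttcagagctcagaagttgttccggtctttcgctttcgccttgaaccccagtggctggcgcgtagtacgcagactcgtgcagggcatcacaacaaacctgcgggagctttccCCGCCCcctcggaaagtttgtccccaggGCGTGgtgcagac
Cyp2s1 (chr7:26601883-26602182, minus strand): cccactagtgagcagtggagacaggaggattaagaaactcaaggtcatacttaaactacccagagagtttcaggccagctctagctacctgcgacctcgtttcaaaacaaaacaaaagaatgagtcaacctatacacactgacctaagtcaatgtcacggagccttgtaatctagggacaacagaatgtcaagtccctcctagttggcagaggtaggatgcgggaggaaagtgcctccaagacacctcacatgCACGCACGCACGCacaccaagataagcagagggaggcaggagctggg
Cyp1a1 (chr9:57545170-57545469, plus strand): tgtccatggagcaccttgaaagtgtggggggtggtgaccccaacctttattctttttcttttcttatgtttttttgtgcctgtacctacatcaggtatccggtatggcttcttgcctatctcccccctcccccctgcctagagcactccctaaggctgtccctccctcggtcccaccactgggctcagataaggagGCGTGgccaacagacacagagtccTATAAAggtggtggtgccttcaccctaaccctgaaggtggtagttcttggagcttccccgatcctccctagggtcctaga
Cyp2e1 (chr7:147949388-147949687, plus strand): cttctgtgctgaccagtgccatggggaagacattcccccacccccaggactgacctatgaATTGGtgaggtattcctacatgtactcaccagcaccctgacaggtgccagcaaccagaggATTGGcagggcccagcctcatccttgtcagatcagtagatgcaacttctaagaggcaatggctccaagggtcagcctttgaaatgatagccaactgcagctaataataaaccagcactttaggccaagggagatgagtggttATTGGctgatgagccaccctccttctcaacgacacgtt
Cyp3a11 (chr5:146691491-146691790, minus strand): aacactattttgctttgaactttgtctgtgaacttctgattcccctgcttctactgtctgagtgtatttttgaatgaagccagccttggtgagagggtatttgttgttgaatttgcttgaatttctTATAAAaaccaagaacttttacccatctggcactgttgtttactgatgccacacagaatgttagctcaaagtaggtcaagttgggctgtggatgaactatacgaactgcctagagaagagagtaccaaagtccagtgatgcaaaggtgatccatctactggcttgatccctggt
Cyp4a14 (chr4:115168698-115168997, minus strand): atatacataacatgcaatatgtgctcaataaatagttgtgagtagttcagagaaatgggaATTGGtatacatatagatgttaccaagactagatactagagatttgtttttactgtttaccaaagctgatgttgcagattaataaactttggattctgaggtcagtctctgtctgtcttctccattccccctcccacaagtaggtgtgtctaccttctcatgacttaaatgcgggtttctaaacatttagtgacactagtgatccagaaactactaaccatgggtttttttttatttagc

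The promoter of Cyp4f13 held 3 CpG dinucleotides over the printed stretch, with 1 GC box and 1 CCAAT match, both on the other strand. That of Cyp4v3 held 20 CpGs and 1 GC box, and that of Cyp2s1 held 7 CpGs and 3 overlapping GCGTG matches on the other strand just after the TSS. Cyp1a1 had 4 CpGs, the letters TATAAA from base -30 and GCGTG from base -54, counted from the TSS as 0. Cyp3a11 and Cyp4a14 each held 1 CpG. The median over all 78 members was 2 CpGs in a stretch of this length, against 12 over all protein-coding genes. TATAAA occurred in 31 of 78 member promoters, against 13.5% of all promoters, and GGGCGG in 12, against 43.7%. CCAAT was present in 41 (37.6% of all promoters) and GCGTG in 15 (37.3%). Within the class of low CpG content, which holds 55 members, TATAAA was in 23 (against 26.5% of all genes of that class), GGGCGG in 6 (6.53%), CCAAT in 32 (38.5%) and GCGTG in 6 (9.06%). The low counts of GGGCGG and GCGTG over all members were thus not seen within this class. These matches are a description of letters and were not tied to binding.

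By the CpG content from 500 bp before to 2 kb after the TSS, 55 members (70.5%) were low-CpG promoters (LCP), 17 intermediate (ICP) and 6 high (HCP). Tags were counted in a 4 kb window, 2 kb on each side of the TSS. Over all genes 22.7% were LCP and 57.9% were HCP. The class was taken from the sequence alone. An HCP holds a stretch of 500 bp with a GC share of at least 0.55 and an observed over expected CpG ratio of at least 0.6, and an LCP has none that reaches 0.4. The 6 HCP members were Cyp1b1, Cyp2r1, Cyp2s1, Cyp2u1, Cyp4v3 and Cyp4x1.

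Most P450 promoters carried little H3K9ac or H3K14ac over input in ES cells. At or above 2-fold over input were 8 of 78 members for H3K9ac (10.3%, 4.53% to 19.2%), against 55.4% of all protein-coding genes. For 13HH3 no member reached 2-fold (0 of 78, at most 4.62%), against 14.7% of all genes. For 7G8 there were 2 of 78 (2.56%), against 15.1%. Within LCP the shares for 13HH3 and 7G8 were 0% and 3.64% of members, against 3.41% and 3.23% of all LCP genes. The median log2 over input of the members was -0.39 for H3K9ac, -0.05 for 13HH3 and 0.07 for 7G8. Over all genes these medians were 1.23, 0.33 and 0.33. Fold values are log2 of tags per 10000000 plus a pseudocount of 1, which understates the change at windows with few tags. Summed over all member windows, there were 3604 H3K9ac tags, 3153 of 13HH3, 3413 of 7G8 and 2725 of input. The pooled log2 over input was 0.14 (0.068 to 0.212) for H3K9ac, 0.047 (-0.027 to 0.122) for 13HH3 and 0.021 (-0.052 to 0.094) for 7G8. Below input were 51 members for H3K9ac, 41 for 13HH3 and 37 for 7G8.

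**Figure D1:**
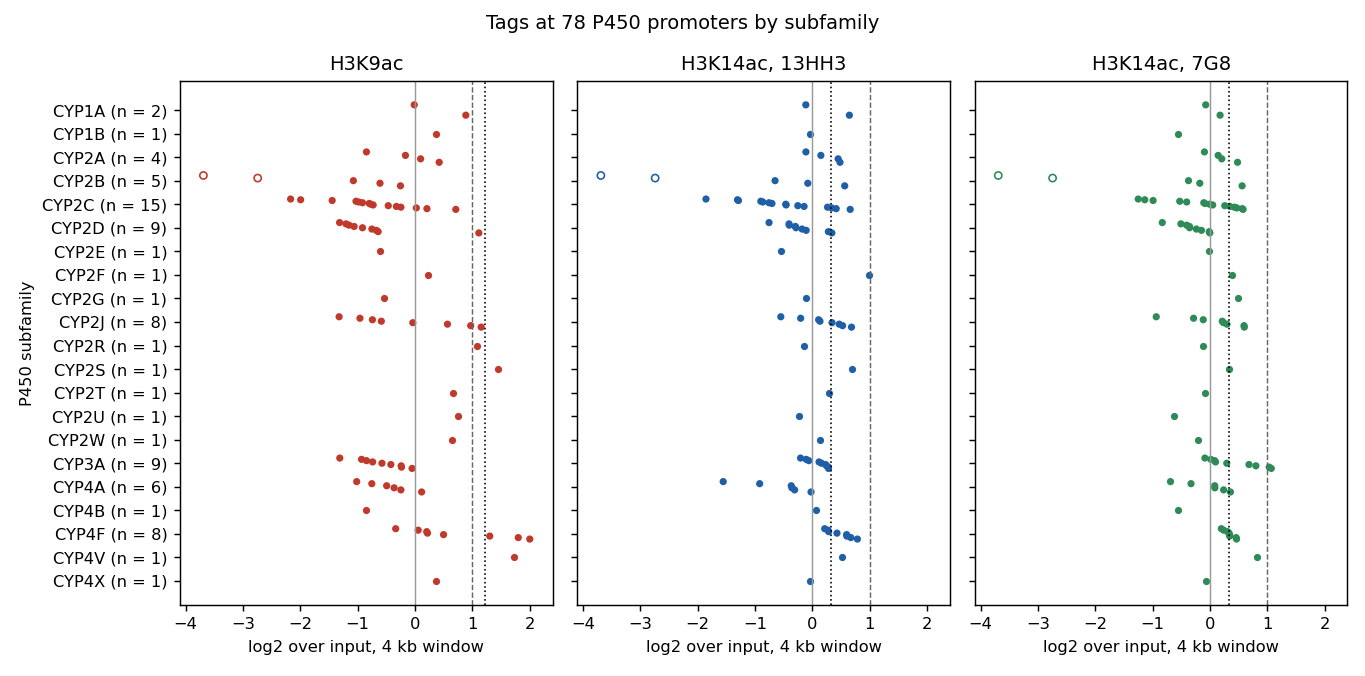
Each point is 1 of the 78 P450 genes, placed on the x axis by log2 of tags over input in the 4 kb window around its TSS and on the y axis by subfamily, with a panel for each antibody. The dotted line is the median of all protein-coding genes (1.23, 0.33 and 0.33), the dashed line is 2-fold, and open symbols are Cyp2b9 and Cyp2b13, which held no antibody tag. CYP4F spans from below input to 2.00 for H3K9ac, while all CYP3A genes lie below input.

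The 8 members at or above 2-fold for H3K9ac were 3 CYP4F genes, Cyp4v3, Cyp2s1, Cyp2j9, Cyp2d22 and Cyp2r1. Cyp4f17, of the subfamily that hydroxylates leukotrienes and long-chain fatty acids, had 233 H3K9ac tags, 85 of 13HH3, 81 of 7G8 and 47 of input. H3K9ac over input was 2.00 on the log2 scale (1.59 to 2.53), 13HH3 0.67 (0.16 to 1.24) and 7G8 0.47 (-0.05 to 1.03). H3K9ac was thus far above input there, and 13HH3 was above it by a smaller amount. Cyp4f13, of the same array, had 215, 86, 79 and 50 tags in that order and a log2 H3K9ac over input of 1.80 (1.39 to 2.32). At Cyp4f16 the tags were 119, 51, 67 and 39 and the log2 was 1.30 (0.81 to 1.91). These were the only 3 of 8 CYP4F genes at or above 2-fold. Cyp4v3, a fatty acid hydroxylase whose human counterpart is needed in the retina, had 113, 44, 61 and 27 tags, with a log2 of 1.73 (1.19 to 2.47) for H3K9ac and 0.83 (0.20 to 1.58) for 7G8. Its 7G8 interval lay wholly above input.

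Among family 2 genes, Cyp2s1, an epithelial P450 inducible through the aryl hydrocarbon receptor, had 172 H3K9ac tags, 93 of 13HH3, 80 of 7G8 and 51 of input. H3K9ac stood at a log2 over input of 1.46 (1.03 to 1.97), and 13HH3 at 0.68 (0.20 to 1.23). Cyp2r1, the vitamin D 25-hydroxylase, had 96, 37, 42 and 37 tags in the same order, a log2 of 1.07 (0.55 to 1.70) for H3K9ac and -0.15 (-0.86 to 0.53) for 13HH3. At this gene neither H3K14ac library differed from input beyond counting error. Cyp2j9, an arachidonic acid epoxygenase family member, had 91, 40, 63 and 33 tags and a log2 of 1.15 (0.61 to 1.82) for H3K9ac. Cyp2d22 had 130, 70, 60 and 49 tags and a log2 of 1.11 (0.66 to 1.65) and was the only CYP2D gene above input for H3K9ac. Just under 2-fold lay Cyp2j6, with 87, 59, 52 and 36 tags, at 0.97 (0.43 to 1.61), whose interval overlapped that of Cyp2r1. Below it in H3K9ac came Cyp2t4 (83, 59, 50 and 43 tags, 0.66), Cyp2j13 (58, 46, 47 and 32 tags, 0.57) and Cyp4f39 (62, 55, 53 and 36 tags, 0.50), each with an H3K9ac peak. That of Cyp2t4 was centred 2017 bp after the TSS and came no nearer to it than 1518 bp. With 1 kb on each side Cyp2t4 was at -0.04 for H3K9ac, on 21 tags against 18 of input.

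Cyp1a1 had 144 H3K9ac tags, 66 of 13HH3, 75 of 7G8 and 64 of input, a log2 of 0.89 (0.47 to 1.35) for H3K9ac and -0.12 (-0.64 to 0.40) for 13HH3. Its H3K9ac peak was centred at -1045 bp from the TSS, upstream of it. Its neighbour Cyp1a2, which oxidises aryl amines in the liver, had 44, 66, 52 and 37 tags and log2 values of -0.01, 0.64 and 0.18. With 1 kb on each side of the TSS its 13HH3 value turned to -0.39, on 20 tags of 13HH3 and 24 of input. Cyp2u1, a fatty acid hydroxylase of brain and thymus, had 125, 58, 48 and 61 tags and a log2 of 0.75 (0.32 to 1.24) for H3K9ac, and of 1.63 with 1 kb on each side. In that narrower window 14 members reached 2-fold for H3K9ac, against 60.7% of all genes, and 5 did for 13HH3, against 23.6%. The 5 were Cyp4f15 (1.75), Cyp4f13 (1.23), Cyp2a12 (1.04), Cyp2j13 (1.03) and Cyp2f2 (1.01), on 23 to 66 tags of 13HH3 against 9 to 24 of input. With so few input tags the last 3, just past 2-fold, are uncertain. Cyp2a12, with 23 tags against 9, and Cyp2j13 had no 13HH3 peak.

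Of 19 well-known P450 genes on a list, 10 had a peak of some antibody within 2 kb (52.6%), against 20 of all 78 members and 68.1% of all genes. The list was made with earlier results of these data known, so its share is a description. The 9 without a peak were Cyp1a2 and the 8 genes described next, which had H3K9ac values between -1.02 and 0.10. Cyp3a11 had 30 H3K9ac tags, 46 of 13HH3, 57 of 7G8 and 43 of input, with log2 values of -0.74 (-1.51 to -0.08), -0.06 (-0.70 to 0.57) and 0.10 (-0.49 to 0.71). Cyp2e1 had 34, 33, 54 and 44 tags and log2 values of -0.60, -0.55 and -0.01. For Cyp2b10, the classic target of the nuclear receptor CAR, the tags were 53, 56, 50 and 53 and the values -0.25, -0.08 and -0.37. The peroxisome proliferator targets Cyp4a10 and Cyp4a14 had 19, 24, 45 and 28 tags and 19, 29, 50 and 34 tags, with H3K9ac at -0.75 and -1.02 and 7G8 at 0.36 and 0.24. Cyp2a5, the coumarin hydroxylase, had 31, 30, 33 and 24 tags (0.10, 0.15 and 0.14), Cyp2c29 15, 30, 33 and 22 (-0.73, 0.26 and 0.26) and Cyp4b1, a lung enzyme, 29, 53, 37 and 45 (-0.85, 0.07 and -0.56). The Cyp2c29 window lies at the start of the annotated gene. Its longest coding transcript starts 46160 bp downstream, outside that window, so these values do not describe that start site.

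By subfamily, the H3K9ac median was 0.36 over the 8 CYP4F genes and -0.31 over the 8 CYP2J genes. It was -0.43 over 6 CYP4A, -0.58 over 9 CYP3A, -0.77 over 15 CYP2C and -0.92 over 9 CYP2D genes. Over these 6 subfamilies the 13HH3 medians ran from -0.47 in CYP2C to 0.51 in CYP4F, and those of 7G8 from -0.35 in CYP2D to 0.34 in CYP4F. Each of these H3K9ac medians was below that of all genes.

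Peaks, called as 400 bp windows whose tags exceeded a local Poisson rate from input at a probability of 1e-05, were then assigned to start sites. An H3K9ac peak lay within 2 kb of 15 members (19.2%, 11.2% to 29.7%), against 66.2% of all genes. A 13HH3 peak lay near 10 members, against 29.1%, and a 7G8 peak near 3, against 26%. By class, an H3K9ac peak lay near 7.27% of LCP, 35.3% of ICP and 83.3% of HCP members. All genes of these classes had 12.7%, 40.4% and 95.8%, so within a class the gap was smaller than over all genes. A 13HH3 peak lay near 10.9% of LCP, 17.6% of ICP and 16.7% of HCP members. Over all genes of these classes the shares were 8.30%, 15.7% and 41.7%. For 7G8 they were 1.82%, 11.8% and 0% of members, against 4.21%, 12.3% and 39.2%. No member with under 80% unique 36-base words in its window had a peak, and the shares without those members are given with the mappability values. The H3K9ac peak of Cyp4f17 was 2100 bp wide with 197 tags and that of Cyp4f13 2150 bp with 175. Those of the other members at or above 2-fold were 850 to 1450 bp wide. Cyp4f17 was the only member with peaks of all 3 antibodies. The 7G8 peaks were at Cyp2j9, Cyp4f17 and Cyp4f16, and each of these genes had an H3K9ac peak as well. They held 34 tags against 7 of input at Cyp2j9, 24 against 8 at Cyp4f16 and 23 against 13 at Cyp4f17, whose 13HH3 peak held 20 against 8. At a Poisson probability of 1e-10, 12 members had an H3K9ac peak, against 57.3% of all genes, none had a 7G8 peak, against 6.31%, and none had peaks of all 3 antibodies, against 2.82% (15.3% at 1e-05).

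Of the 10 members with a 13HH3 peak, 5 had no H3K9ac peak in the window: Cyp2j5, Cyp2f2, Cyp2d26, Cyp3a13 and Cyp4f15. Over all genes 342 of 6222 windows with a 13HH3 peak (5.50%) had no H3K9ac peak. Most members are LCP, however, and among all LCP genes 12.7% had an H3K9ac peak and 8.30% a 13HH3 peak. The share of LCP windows with a 13HH3 peak but no H3K9ac peak was not counted. Cyp2f2, the naphthalene-oxidising P450 of lung club cells, had 55 H3K9ac tags, 89 of 13HH3, 64 of 7G8 and 39 of input. Its 13HH3 log2 of 0.99 (0.47 to 1.61) was the highest of any member, while H3K9ac was at 0.22 (-0.39 to 0.86). Cyp4f15 had 64, 79, 71 and 46 tags with a 13HH3 value of 0.60 (0.07 to 1.17), and its 13HH3 peak of 500 bp held 23 tags against 3 of input. With 1 kb on each side of the TSS its H3K9ac was also past 2-fold, at 1.06, on 35 tags against 13 of input. The lack of an H3K9ac peak there is thus not a lack of H3K9ac tags. At Cyp3a13, an intestinal member of the CYP3A family that lies apart from the array, the tags were 37, 44, 42 and 32 and the peak held 22 tags against 4 of input. At a Poisson probability of 1e-10 a 13HH3 peak stood at 1 member (1.28%), against 8.73% of all genes.

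**Figure D2:**
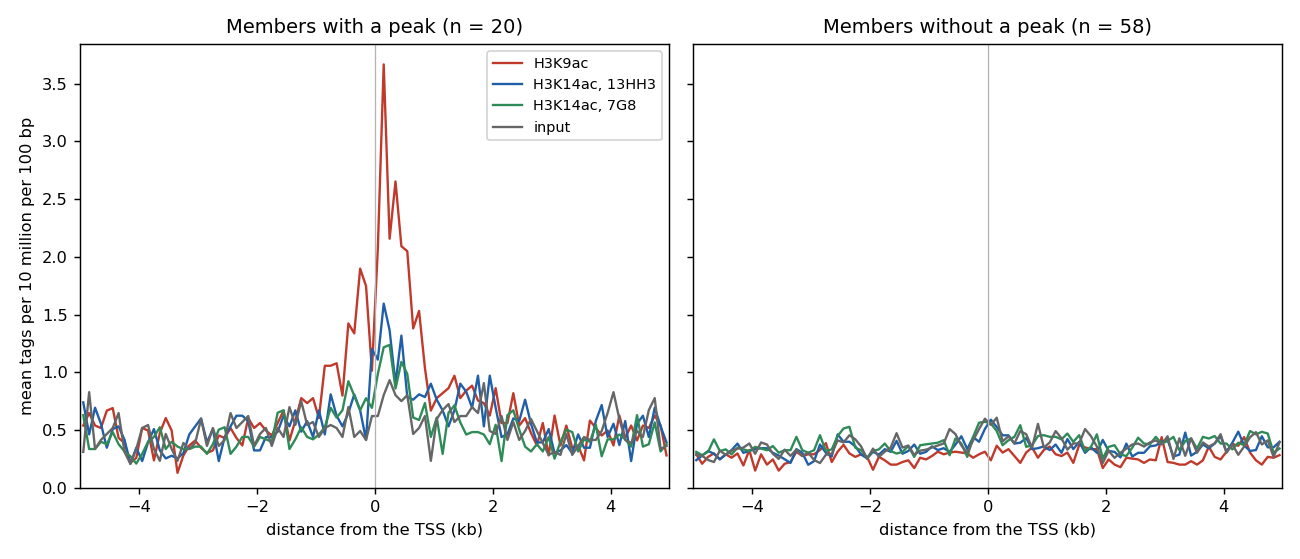
Mean tags per 10000000 in bins of 100 bp (y axis) against distance from the TSS in kb (x axis, positive in the direction of transcription) for the 20 members with a peak of any antibody within 2 kb (left) and the 58 without (right). With a peak, H3K9ac rises to 1.61 (log2 over input) within 500 bp of the TSS and the 13HH3 and 7G8 lines rise less. Without one, input, 13HH3 and 7G8 are higher near the TSS than 5 kb away (input 0.286 tags per 10000000 in the bin farthest upstream and 0.598 in the bin just before the TSS), while H3K9ac is at 0.290 and 0.312 in these bins.

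Tags were summed by distance from the TSS over the 20 members with a peak of any antibody. Within 500 bp of the TSS the pooled log2 over input was 1.61 (1.41 to 1.81) for H3K9ac, 0.61 (0.38 to 0.84) for 13HH3 and 0.49 (0.27 to 0.72) for 7G8. From 500 bp to 2 kb it was 0.57, 0.21 and -0.08, and from 2 to 5 kb 0.05, 0.02 and -0.18. Since these 20 members were chosen for a peak within 2 kb of the TSS, both their levels and the distance of the tags from it are a description. In the 58 members without a peak, H3K9ac was below input at each distance, at -0.62 (-0.81 to -0.42) within 500 bp, -0.51 up to 2 kb and -0.35 (-0.44 to -0.26) from 2 to 5 kb. There 13HH3 was at -0.01, -0.17 and -0.04 and 7G8 at -0.02, -0.02 and 0.12. H3K9ac below input was also the rule among all genes without a peak, with a median of -0.28 over 6824 windows and of -0.36 over the 4020 that were LCP. These values are scaled to library totals. Of autosomal H3K9ac tags 22.2% lay in peaks of any antibody, against 12.4% for 13HH3 and 10.3% for 7G8. Scaled to tags outside peaks, pooled log2 over input is higher by 0.264 for H3K9ac, 0.0895 for 13HH3 and 0.0619 for 7G8. H3K14ac over H3K9ac is lower on that scale.

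The CpG number of the window went with H3K9ac. Over the 78 members the rank correlation (Spearman's rho) of log2 H3K9ac over input with the CpG count in 4 kb was 0.51 (Pearson's r 0.49), against 0.70 over all genes. It was 0.23 for 13HH3 and -0.13 for 7G8. The points are genes of the same 4 libraries, and genes of an array share sequence, so this is a description. In the 58 windows without a peak rho for H3K9ac was 0.17. By class the H3K9ac medians were 0.91 for the 6 HCP, -0.01 for the 17 ICP and -0.60 for the 55 LCP members, against 1.92, 0.24 and -0.23 over all genes of these classes. In each class the median of the members lay below that of all genes. Single ICP and LCP members lay above it, up to 2.00 and 1.80, while the highest HCP member stood at 1.73. Within LCP, 2 members reached 2-fold, Cyp4f13 and Cyp4f16 (3.64%, against 6.94% of all LCP genes). Of 17 ICP members 3 did (17.6%, against 25.0%), and of 6 HCP members 3 did (50%, against 84.5%): Cyp4v3, Cyp2s1 and Cyp2r1.

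**Figure D3:**
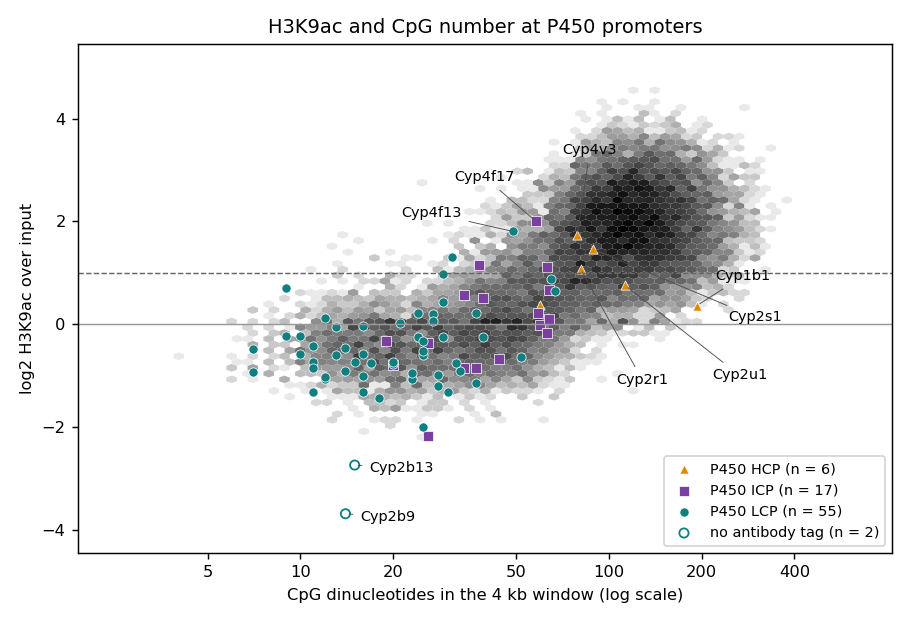
H3K9ac over input (y axis, log2) against the number of CpG dinucleotides in the 4 kb window (x axis, log scale). Grey hexagons count all protein-coding genes on a log scale, and coloured symbols are the P450 genes by promoter class. Cyp4f17 and Cyp4f13 lie high for their CpG number and Cyp1b1, with 193 CpGs, lies low at 0.36.

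Cyp1b1, the extrahepatic P450 that hydroxylates oestradiol, had the most CpGs of any member but stayed under 2-fold for H3K9ac. It had 173 H3K9ac tags, 121 of 13HH3, 93 of 7G8 and 112 of input, and log2 values of 0.36 (0.01 to 0.72), -0.05 (-0.43 to 0.33) and -0.56 (-0.98 to -0.16). Its 112 input tags were the most of any member, and 49 of 21418 genes had more. The surroundings were low against input in the same way: from 2 to 50 kb on both sides the log2 over input was -1.10 for H3K9ac, -0.91 for 13HH3 and -0.98 for 7G8. Only 158 of 21418 genes had flanks in which the highest of the 3 values was lower. Relative to these flanks, the promoter stood at 1.46 for H3K9ac, 0.86 for 13HH3 and 0.42 for 7G8. The part of the high input level in the value at Cyp1b1 was not tested. The other HCP members under 2-fold for H3K9ac were Cyp2u1 at 0.75 (0.32 to 1.24) and Cyp4x1 at 0.37 (-0.25 to 1.04), which had 55 H3K9ac tags against 35 of input and no peak.

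Relative to flanks of 2 to 50 kb, 9 of 78 members were at or above 2-fold for H3K9ac, against 45.6% of all genes. They were Cyp4v3 (1.74), Cyp4f17 (1.63), Cyp2j9 (1.52), Cyp1b1 (1.46), Cyp2j6 (1.28), Cyp2r1 (1.27), Cyp2c65 (1.27), Cyp2j13 (1.02) and Cyp2b13, whose value compares a window with 0 antibody tags and flanks with 3 H3K9ac tags and cannot be read. Cyp2c65 rests on 29 H3K9ac and 14 input tags. Cyp4f13, second over input, stood at 0.93 over flanks whose own log2 over input was 0.87, and Cyp2t4 at -0.65 over flanks at 1.31.

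The most extreme members were Cyp2b9 and Cyp2b13, neighbouring CYP2B genes of mouse liver. Their windows held 23 and 11 input tags and 0 tags in each of the 3 antibody libraries. With 3 tags as the limit that a count of 0 allows per library, and with the input count taken as exact, H3K9ac was at least 9.20-fold lower than input at Cyp2b9 and at least 4.40-fold lower at Cyp2b13. For 13HH3 the bounds were 8.58-fold and 4.11-fold, and for 7G8 9.46-fold and 4.53-fold. With the counting error of input included, the upper ends of the 95% intervals of log2 over input were -2.79, -2.69 and -2.83 at Cyp2b9 and -1.59, -1.49 and -1.63 at Cyp2b13 for H3K9ac, 13HH3 and 7G8, which are nearer to 0 than those bounds of 3 tags. Of 20482 windows with at least 10 input tags, these were the only 2 without any antibody tag. Both lie in 1 stretch of 200 kb, chr7:26780001-26980000 in bins of 10 kb, which held 557 input tags but 4 of H3K9ac, 10 of 13HH3 and 9 of 7G8. That is 0.00598, 0.0160 and 0.0131 times the level in input. In the 200 kb after it the ratios were 1.04, 0.896 and 1.18, and in the 200 kb before it 1.35, 1.19 and 1.11. No other protein-coding start site lies inside. Whether acetylation was low or tags of any kind were lacking in the antibody libraries was not tested. The bounds given here are of tags, not of acetylation. Pooled over the 58 member windows without a peak, these 2 among them, log2 over input was -0.54 for H3K9ac, -0.12 for 13HH3 and -0.02 for 7G8.

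**Figure D4:**
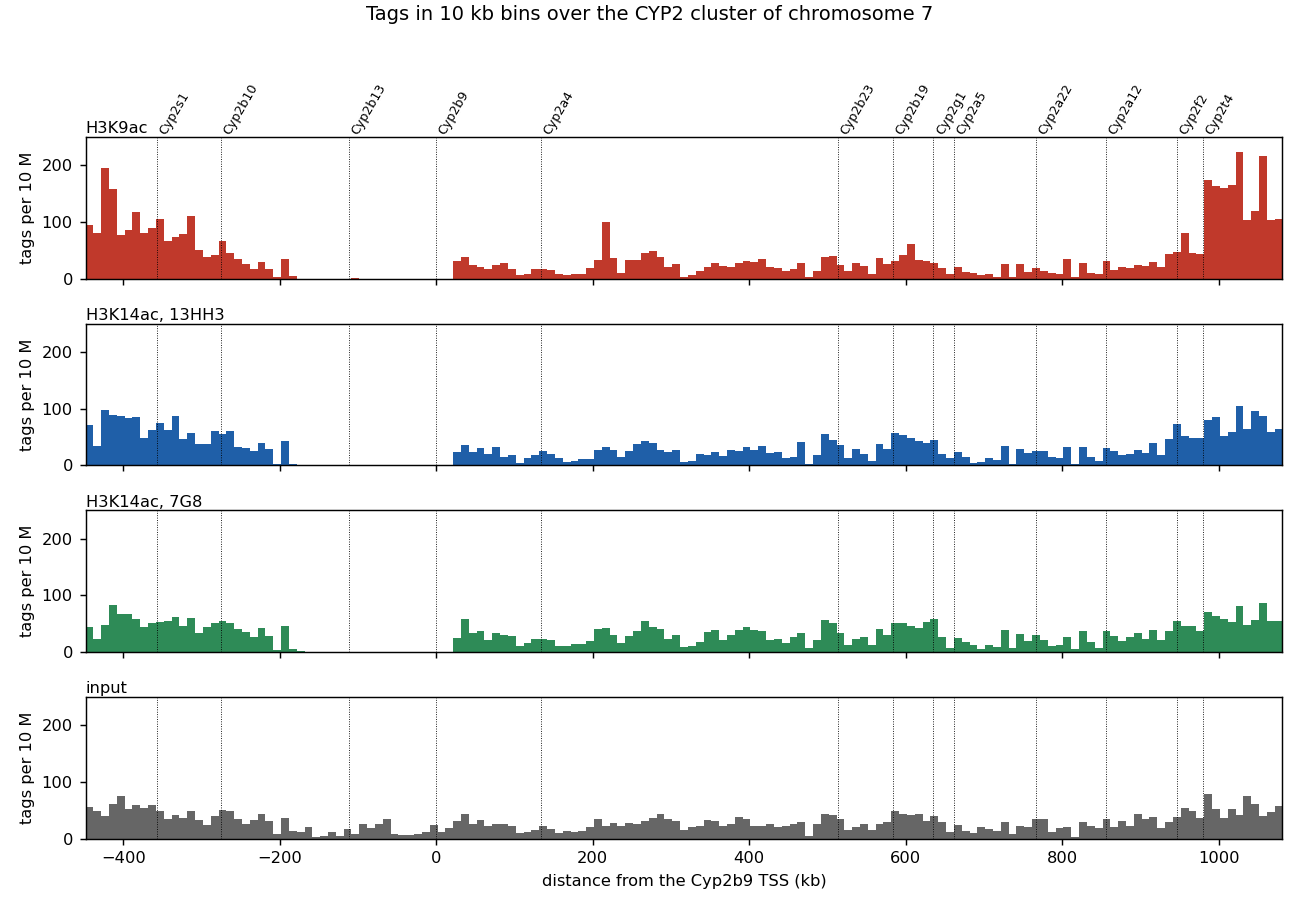
Tags per 10000000 in bins of 10 kb (y axis, same scale in each panel) over the CYP2 array of chromosome 7, against distance from the Cyp2b9 TSS in kb (x axis), with dotted lines at the start sites of 13 members. The 3 antibody libraries hold almost no tags over 200 kb that contain Cyp2b13 and Cyp2b9, where input holds 557, while Cyp2s1 and Cyp2t4 lie at the H3K9ac-rich ends.

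Without Cyp2b9 and Cyp2b13 the number of members at or above 2-fold and the number with a peak were as before in each library, and the median log2 over input was -0.35 for H3K9ac, -0.03 for 13HH3 and 0.08 for 7G8. The next lowest members were Cyp2c40 and Cyp2c67, of the CYP2C array of chromosome 19. Cyp2c40 had 3 H3K9ac tags, 4 of 13HH3, 10 of 7G8 and 18 of input, a log2 of -2.17 for H3K9ac. Cyp2c67 had 7, 12, 15 and 29 tags, with log2 values of -1.99 (-3.75 to -1.09), -1.29 (-2.54 to -0.42) and -1.13 (-2.26 to -0.31). In both the surroundings were nearer to input, with H3K9ac at -0.34 and -0.92 from 2 to 50 kb.

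H3K14ac was then set against H3K9ac, which uses no input. The median log2 of 13HH3 over H3K9ac was 0.32 over the members and -0.86 over all genes. For 7G8 it was 0.35 and -1.01. With the tags of all member windows pooled, which gives windows with many tags more weight, the sign was the opposite: -0.093 (-0.162 to -0.023) for 13HH3 and -0.119 (-0.187 to -0.051) for 7G8, against -1.08 and -1.14 over the windows of all genes. In 7 members (8.97%, 3.68% to 17.6%) 13HH3 was at or above 2-fold over H3K9ac, against 1.74% of all genes. For 7G8 there were 14 (17.9%), against 3.36%. Such ratios were more frequent among LCP genes as a whole, with 267 of 4868 for 13HH3 and 564 for 7G8. Of the 55 LCP members 7 and 13 reached this level. In 8 members 13HH3 was at least 2-fold lower than H3K9ac, against 45.2% of all genes, and in 6 7G8 was, against 50.4%. These counts depended on the scale and the pseudocount. Scaled to tags outside peaks, 4 members (5.13%, against 0.971% of all genes) reached 2-fold over H3K9ac for 13HH3 and 9 (11.5%, against 1.85%) for 7G8, and 7G8 was at least 2-fold lower in 11 (against 57.8%). With a pseudocount of 5, 1 member (1.28%, 0.0325% to 6.94%) reached 2-fold for each antibody, against 0.364% of all genes for 13HH3 and 0.714% for 7G8, which both lie within that interval. There 13HH3 was at least 2-fold lower in 4, against 41.1%. Among the 51 members with at least 80% unique 36-base words, 5 reached 2-fold for 13HH3 (9.8%, against 1.37% of all genes with such windows) and 7 for 7G8 (13.7%, against 2.67%). In each of the 7 members high in 13HH3 over H3K9ac, the H3K9ac value was below input (-1.32 to -0.59). A ratio over H3K9ac picks such windows by its making. Their 13HH3 values ran from below input (-0.30) to above it (0.68). The LCP members had a median of 0.42, against 0.14 over all LCP genes and 0.21 over LCP genes without a peak.

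**Figure D5:**
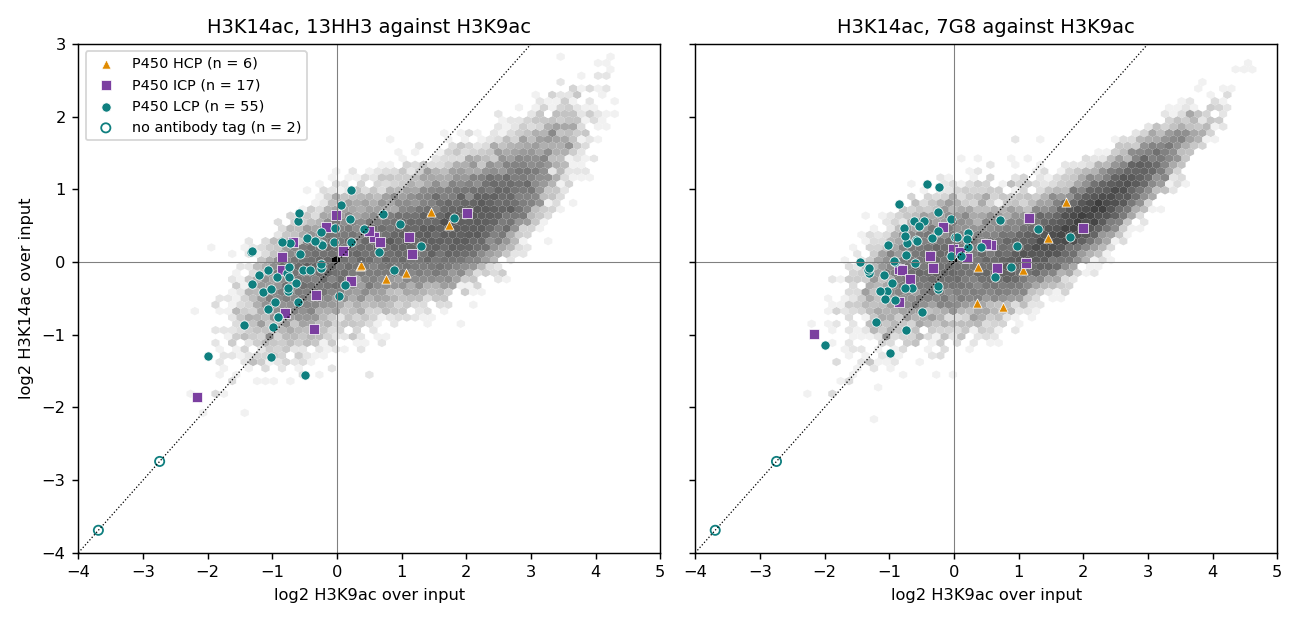
Log2 of H3K14ac over input (y axis) against log2 of H3K9ac over input (x axis), for 13HH3 on the left and 7G8 on the right. Grey hexagons count all protein-coding genes on a log scale, coloured symbols are P450 genes by promoter class, open circles are Cyp2b9 and Cyp2b13, and the dotted line is equality. Above the line of equality lie 51 of the 78 P450 genes for 13HH3 (65.4%, against 21.9% of all genes and 58.2% of all LCP genes) and 49 for 7G8 (62.8%, against 21.5% and 63.4%), while Cyp4f17 and Cyp4v3 lie to the right of it.

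The highest ratio among windows with at least 20 tags in both together was at Cyp2j5, a kidney and liver epoxygenase, with 13 H3K9ac tags, 37 of 13HH3, 34 of 7G8 and 30 of input. Its log2 of 13HH3 over H3K9ac was 1.45 (0.66 to 2.64). The next were Cyp2j11 at 1.27 (0.58 to 2.19), Cyp2b19, a keratinocyte enzyme, at 1.17 (0.50 to 2.05), Cyp3a44 at 1.12 (0.27 to 2.33) and Cyp2d12 at 1.02 (0.43 to 1.75). Their tags, in the same order of libraries, were 20, 48, 40 and 26 at Cyp2j11, 22, 49, 54 and 29 at Cyp2b19, 13, 29, 47 and 21 at Cyp3a44 and 31, 61, 42 and 62 at Cyp2d12. Of these 5 only Cyp2j11 had a 13HH3 interval over input that reached no lower than 0, and its lower end was 0.00. The H3K9ac interval lay wholly below input at Cyp2j5 (-2.53 to -0.49) and Cyp2d12 (-1.93 to -0.62). The lowest ratios were at Cyp4f17 (-1.33, -1.73 to -0.99), Cyp2r1 (-1.23), Cyp4v3 (-1.22), Cyp4f13 (-1.20) and Cyp4f16 (-1.09), which were all at or above 2-fold for H3K9ac. Cyp2s1 (-0.77) and Cyp2d22 (-0.77) had a smaller gap between the marks in the 4 kb window. With 1 kb on each side, H3K9ac and 13HH3 over input were at 1.70 and 0.18 at Cyp2s1 and at 1.13 and -0.03 at Cyp2d22. Neither gap was then smaller than that of Cyp4v3, at 1.89 and 0.75. The 13HH3 peak of Cyp2s1 was centred 1882 bp after the TSS and its H3K9ac peak 307 bp after it.

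Among the arrays of P450 genes, 7G8 over H3K9ac was highest in CYP3A on chromosome 5, which spans 819 kb and holds 8 members, at a pooled log2 of 0.93 (0.87 to 1.00). Over the whole array the log2 over input was -0.76 (-0.83 to -0.69) for H3K9ac, -0.088 (-0.151 to -0.024) for 13HH3 and 0.175 (0.115 to 0.235) for 7G8, and no H3K9ac peak lay in it. The 2 members at or above 2-fold for 7G8 in the 4 kb window were both there. With 1 kb on each side there were 3 (against 22.5% of all genes), Cyp4f15 (1.48), Cyp3a59 (1.31) and Cyp4v3 (1.02), of which only Cyp3a59 lies in this array, and Cyp3a41b was at 0.40. Cyp3a59 had 48 tags of 7G8 against 18 of H3K9ac, 24 of 13HH3 and 18 of input, a log2 of 1.03 (0.30 to 1.98). Cyp3a41b had 13 tags of 7G8 against 4 of input (1.07, -0.30 to 3.47), which its interval does not separate from input.

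Arrays differed in their overall level. The members fell into 7 arrays of at least 3 genes less than 500 kb apart, with 67 members, and 11 lay outside. A whole array runs from the start of its first member to the end of its last, with any other sequence between them. Over whole arrays H3K9ac was highest over input in CYP4F on chromosome 17, at 0.56 (0.50 to 0.61) over 479 kb, with 33 H3K9ac peaks or 68.9 per Mb. Of the 7 members of that array, 4 had an H3K9ac peak within 2 kb of the TSS, so most of the 33 lay elsewhere. The autosomes as a whole had 30.7 per Mb. H3K9ac over input was -0.57 (-0.63 to -0.50) in CYP2C on chromosome 19, with 2 peaks in 1180 kb, and -0.66 (-0.73 to -0.59) in CYP2D on chromosome 15. On chromosome 4 it was -0.44 in CYP2J and -0.57 in the array of CYP4A, CYP4B and CYP4X. In the array of chromosome 7 with CYP2A, CYP2B, CYP2F, CYP2G, CYP2S and CYP2T it was -0.11 (-0.16 to -0.06) with, and 0.01 (-0.04 to 0.06) without, the 200 kb around Cyp2b9 and Cyp2b13 that hold almost no antibody tags, an exclusion chosen after seeing the data. Without that stretch 13HH3 there was at 0.01 (-0.04 to 0.06) in place of -0.11, and 7G8 at 0.11 (0.06 to 0.15) in place of -0.01. The other 6 arrays hold no such stretch. For 13HH3 the CYP4F array was at 0.08 (0.03 to 0.14) with 19 peaks, and CYP2D was lowest at -0.33. For 7G8 the CYP2D array was lowest too, at -0.25, and CYP3A and CYP2J were highest, at 0.175 and 0.163. Gene bodies more than 2 kb past the TSS, pooled over 77 members, stood at -0.24 for H3K9ac, -0.10 for 13HH3 and 0.06 for 7G8, against 0.10, 0.08 and -0.05 over all genes.

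Many P450 genes have near-identical copies, which limits where a read of 36 bases can map. The median share of start positions in a member window whose 36-base word occurs once in the genome was 90.8%, against 97% over all genes. It was lowest at Cyp3a41b (17.2%), Cyp3a41a (17.4%) and Cyp4a12a (26.25%). They had 3, 4, 13 and 4 tags, 2, 9, 8 and 7 tags, and 8, 5, 8 and 6 tags of H3K9ac, 13HH3, 7G8 and input. Their values are uncertain for this reason, and those of Cyp2b9 (46.3%) and Cyp2b13 (38.2%) rest on the unique part of their windows. In the 51 members with at least 80% unique words, the H3K9ac median was -0.04 in place of -0.39, against 1.39 over all genes with such windows. All 20 members with a peak were among these 51, as were 31 of the 58 without. An H3K9ac peak thus lay near 15 of 51 (29.4%, against 72.3% of all genes with such windows), a 13HH3 peak near 10 (19.6%, against 31.9%) and a 7G8 peak near 3 (5.88%, against 28.5%).

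The other genes of the pathway were taken from fixed lists. Of the partners that deliver electrons or haem to P450 enzymes, 4 of 5 were in the table and all 4 reached 2-fold for H3K9ac: Por, the reductase itself (1.13), Cyb5b (2.05), Alas1, the first enzyme of haem synthesis (1.61), and Cyb5r3 (1.91). Of 11 regulators 6 did. Among them were Nfe2l2 (2.94), Arnt (2.58), Cebpa (2.17), Ahr (1.32) and Rxra (1.30). The receptors Nr1i2 (-0.14) and Nr1i3 (-0.16), known as PXR and CAR, and Hnf4a (0.11) were near input, and Ahrr and Ppara lay between (0.60 and 0.46). Nr1i2 and Hnf4a had a 13HH3 peak but no H3K9ac peak. Of 8 genes of conjugation and hydrolysis 5 reached 2-fold, among them Gsta4 (3.04), Ephx2 (1.85) and Nqo1 (1.62). Among 21 genes of other P450 families 9 did, among them Tbxas1 (2.51), Cyp20a1 (2.49), Cyp27a1 (1.79), Cyp7b1 (1.68), Cyp51, the sterol demethylase (1.60), and Cyp26a1, which degrades retinoic acid (1.10). The other 12 lay between -0.85 (Cyp8b1) and 0.93 (Ptgis). The 9 genes at or above 2-fold were all HCP, the class of 12 of the 21. In 3 of the 21 windows lay the start site of another protein-coding gene, as in 3039 of the 21418 windows of all genes. The same held for 1 of the 11 regulators and 1 of the 8 genes of conjugation and hydrolysis, but for no member. Tags in such windows can belong to either gene. Of all protein-coding genes 55.4% reached 2-fold for H3K9ac.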

How the data were processed

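ChIP-seq tags of 4 libraries were used, 1 each for H3K9ac, 13HH3, 7G8 and input. The values are of another kind than expression: positions and strands of mapped reads, deposited by the authors, who aligned reads of 36 bases to mm9 with ELAND allowing 1 mismatch. The peaks that the study called with MACS were not used here. In the 13HH3 library 738619 tags repeated a position and strand (3.30%) and 1 was kept. Tags were moved by 100 bp towards the fragment centre, counted in 2 kb on each side of the TSS, scaled to tags per 10000000 and compared as log2 with a pseudocount of 1. The 95% intervals are Clopper-Pearson intervals of the tag ratio, without the pseudocount, or, for shares of members, of the number of members. Peaks were windows of 400 bp in steps of 50 bp above the highest of the genome-wide and local input rates. The members, gene lists and alternatives were chosen with earlier results of these data known. Named genes were those at or above 2-fold or with a peak (the 20 highest by H3K9ac), the 5 highest and 5 lowest 13HH3 over H3K9ac among windows with at least 20 tags, a list of well-known P450 genes, and the 3 least unique windows. Cyp2c65, Cyp2c40, Cyp2c67, Cyp2b9, Cyp2b13 and other members outside it were named after their values were seen. The counting was tested on simulated data. Scripts ran in Python 3.11.15 (pandas 2.3.3, numpy 2.4.6, scipy 1.17.1), with figures from matplotlib 3.10.9. Groups came from the labels. Alternatives covered the window, scale, repeated and unmoved tags, start site, pseudocount, peak threshold and low input. Some items of the gene lists and promoters are not reported here.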

Additional observations from a re-analysis of the deposited data

How the results depend on the processing

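With 1 library per antibody no replicate could be left out, and no paired analysis was possible because each group holds 1 library and no test was made. With 1 kb on each side of the TSS the members at or above 2-fold numbered 14 for H3K9ac and 5 for 13HH3, and the pooled log2 over input was 0.378, 0.12 and 0.115 for H3K9ac, 13HH3 and 7G8. In that window Cyp1a2 turned to -0.39 for 13HH3 over input and to -0.092 for 13HH3 over H3K9ac, and Cyp2t4 to -0.037 for H3K9ac. Scaling to tags outside peaks moved the median of all genes by 0.258 for H3K9ac, 0.0856 for 13HH3 and 0.0590 for 7G8, gave 1 member at 2-fold for 13HH3, and moved the pooled values to 0.404 for H3K9ac and 0.137 for 13HH3. For 13HH3 the count was also 1 with repeated tags kept, with tags not moved and with a pseudocount of 0.1. For 7G8 it was 1 with tags not moved and with at least 10 input tags, and 0 with a pseudocount of 5. At a Poisson probability of 1e-10, 1 member had a 13HH3 peak and 0 a 7G8 peak. With at least 80% unique words, an alternative chosen after seeing the data, the 7G8 count was 0, the H3K9ac median -0.038 and the pooled values 0.320 for H3K9ac and 0.153 for 13HH3. Leaving out Cyp2b9 and Cyp2b13, also chosen after seeing the data, moved no such count or median beyond its spread. The numbers of members with H3K14ac at or above 2-fold over H3K9ac, followed over the same settings after seeing the data, fell from 7 to 4 for 13HH3 and from 14 to 9 for 7G8 when scaled to tags outside peaks, and to 1 and 1 with a pseudocount of 5. For 7G8 the number was 7 with at least 80% unique words. Those at least 2-fold lower went from 6 to 11 for 7G8 on the outside-peaks scale and from 8 to 4 for 13HH3 with a pseudocount of 5. Of the values that answer a comparison, 153 stayed and 27 moved. Of those of single genes, 1530 stayed, 15 moved and 3 turned sign. The cause of these moves was not tested. No member window holds the start site of another protein-coding gene.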

Other observations

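The stretch around Cyp2b9 and Cyp2b13 was not the only one of its kind. On chromosomes 1 to 19 there were 25 runs of at least 3 bins of 10 kb in which the antibody libraries together held 10% or less of the level in input. The run at the CYP2B genes was the third longest. The longest measured 260 kb on chromosome 17, and the next, of 250 kb on the same chromosome, held 19 tags of H3K9ac, 24 of 13HH3 and 19 of 7G8 against 692 of input.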
